A study of Mus musculus with 2 samples.

Results

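The miRNAs examined here come from a pair of related mouse polycistrons, the Mir17-92 cluster on chromosome 14 and the Mir106a cluster on the X chromosome, and 9 of their mature miRNAs were listed by name: mmu-miR-17, mmu-miR-17*, mmu-miR-18a, mmu-miR-19a, mmu-miR-19b, mmu-miR-20a, mmu-miR-92a, mmu-miR-20b and mmu-miR-106a, written below without the species prefix. Members were taken as the miRNA probes whose name in the scanner files, without its version suffix, is on that list. This gave 8 miRNAs with 16 probes, out of 1080 miRNAs with 2780 probes on the array. The ninth, miR-106a, had no probe under its own name. All 8 were measured at both stages, among 137 miRNAs for which at least 1 probe was detected on both arrays (at least 50% of its spots well above background).

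Tissue was the medial part of the mandibular arch, which gives rise to the tongue, from ICR mouse embryos at the embryonic days E10.5 and E11.5, with no treatment named for either stage. The submitters describe the interval as one in which muscle regulatory genes are activated and myoblasts begin to differentiate. RNA from 40 embryos was pooled for each stage and hybridised to 1 array, so the pools cannot show variation between embryos or litters. There were thus no replicates, no difference was tested, and errors are the SD or standard error (SE) over repeated spots of a probe on an array. The number of arrays limits the precision. Because the RNA is from bulk tissue, fewer cells of a type and less RNA per cell cannot be told apart.

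Each cluster is transcribed as 1 long RNA from which several hairpins are cut, and each hairpin can give a guide strand, which is loaded into Argonaute, and a passenger strand, written with an asterisk. The guide strands recognise messenger RNAs mainly through the seed, bases 2 to 8. The Mir17-92 cluster is activated by MYC and E2F factors and is known for sustaining proliferation and survival of progenitor cells in the embryo, the heart, the lung, the palate and blood. Its miR-17 family restrains the cell cycle inhibitor p21 and the pro-apoptotic protein BIM, miR-18a acts on TGF-beta signalling, and miR-92a acts on integrin alpha 5 in vessels.

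The mature sequences, from RefSeq (GRCm38.p6), are shown 5′ to 3′ because the seeds sort the members into families that recur in both clusters. Capitals mark the seed, and the first 4 sequences share 1 seed.
miR-17 (miR-17-5p): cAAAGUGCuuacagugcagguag
miR-20a (miR-20a-5p): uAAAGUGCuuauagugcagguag
miR-20b (miR-20b-5p): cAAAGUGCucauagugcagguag
miR-106a (miR-106a-5p): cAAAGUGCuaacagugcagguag
miR-18a (miR-18a-5p): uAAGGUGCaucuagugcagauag
miR-19a (miR-19a-3p): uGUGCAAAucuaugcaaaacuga
miR-19b (miR-19b-3p): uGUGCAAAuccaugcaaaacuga
miR-92a (miR-92a-3p): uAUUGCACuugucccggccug
miR-17* (miR-17-3p): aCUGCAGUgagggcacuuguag

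The names in brackets are those of the RefSeq sequence that contains the exact complement of the probes. The Mir17-92 hairpins lie at chr14:115043671-115044506 on the plus strand (GRCm38.p6), in the order Mir17, Mir18, Mir19a, Mir20a, Mir19b-1 and Mir92-1, over 836 bases. The same annotation places the long noncoding RNA gene Mir17hg at chr14:115044390-115046728, a span that holds Mir92-1. The Mir106a hairpins lie at chrX:52741693-52742567 on the minus strand, over 875 bases, in the order Mir106a, Mir18b, Mir20b, Mir19b-2, Mir92-2 and Mir363. miR-18a, miR-19a, miR-20a and miR-17* come from chromosome 14 and miR-20b from the X chromosome, while miR-19b and miR-92a have the same mature sequence at both loci, so their probes cannot separate them.

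The array probes pair with the 3′ end of a miRNA and reach into the seed to different extents: over 0 or 1 of its 7 bases for miR-17 and miR-17*, 3 to 5 for miR-18a, miR-19b, miR-20a, miR-20b and miR-92a, and 5 or 6 for miR-19a. The probes of 3 members of the miR-17 family are shown 5′ to 3′ as on the array, with capitals at the positions, counted from the 5′ end of the probe, where they differ.
miR-17 probe: ctacctgcactGt
miR-20a probe: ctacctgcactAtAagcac
miR-20b probe: ctacctgcactAtGagcac

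The probes of the miR-19 family differ from each other at 1 position.
miR-19a probe: tcagttttgcatAgatttgc
miR-19b probe: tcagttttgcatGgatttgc

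The mismatches below are written as the probe's base, its position and the base that would pair with the other miRNA. Against miR-20b, the miR-20a probe thus has 1 mismatch, A14G. The miR-17 probe has 1 mismatch to both miR-20a and miR-20b, G12A, and 0 to miR-106a, whose name the scanner files list beside miR-17 for these probes. With 12 and 13 bases, the miR-17 probes cover 0 of the 7 seed bases and were the shortest of the members' probes. The miR-19a probe has 1 mismatch to miR-19b, A13G. Whether a probe also read its near relatives was not tested.

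Relative to the other detected miRNAs, all 8 measured members had lower values at E11.5 than at E10.5, and 5 of them (miR-20b, miR-17, miR-20a, miR-92a and miR-18a) were at least 2-fold lower. Of all 137 measured miRNAs, 52.6% were lower and 13.9% were at least 2-fold lower. None of the 8, and 3.65% of all measured miRNAs, were at least 2-fold higher. The scaled log2 difference (E11.5 minus E10.5) ran from -1.44 to -0.74 over the members, with a median of -1.15, beside a median of -0.07 over all measured miRNAs. Scaling here divides each array by the 75th percentile of those probes that passed detection at both stages, 194 for the E10.5 array and 482 for the E11.5 array, and so takes 1.31 off every log2 difference. Before scaling, 6 of the 8 members were brighter at E11.5, by less than most miRNAs, and 2 were dimmer, against 90.5% brighter and 9.49% dimmer over all measured miRNAs. Both descriptions hold for the same spots: the members' median lay 1.08 below the median of all measured miRNAs with and without scaling.

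**Figure D1:**
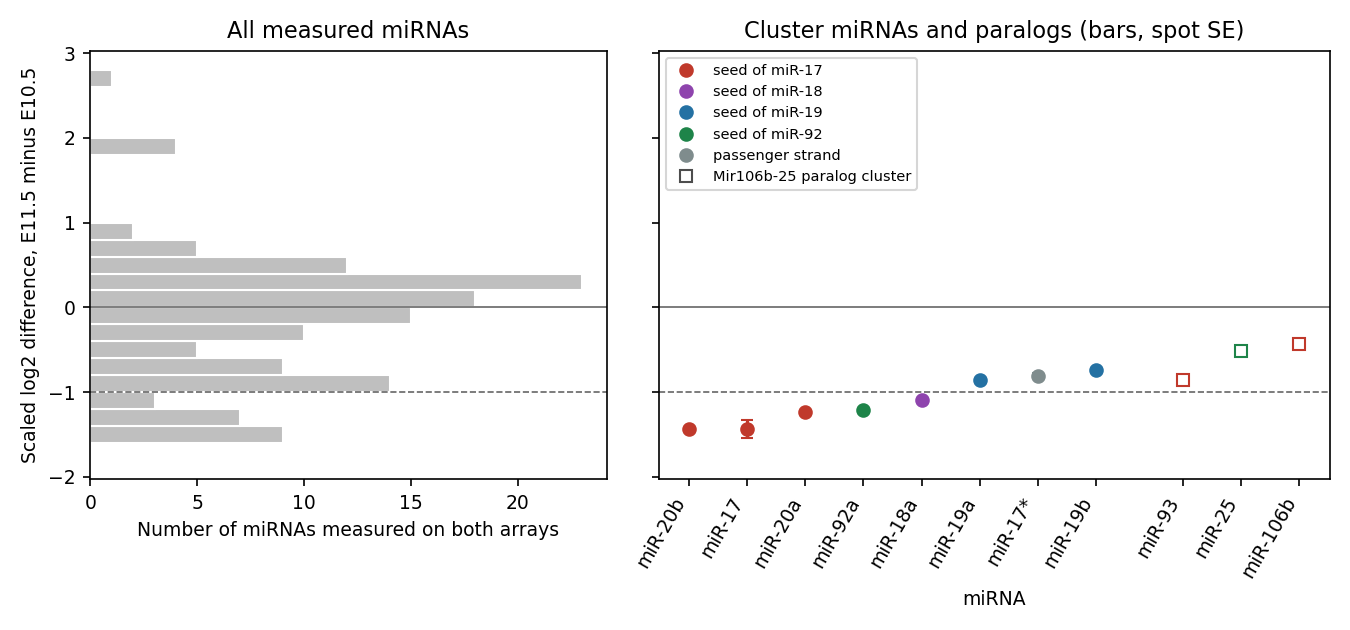
Scaled log2 differences, E11.5 minus E10.5 (vertical axis), as a histogram of the 137 miRNAs measured on both arrays (left) and for each cluster miRNA (filled circles, coloured by seed) and its Mir106b-25 paralogs (open squares), with bars for the SE over spots (right). The dashed line marks a 2-fold lower value. All 8 cluster miRNAs lie below 0, from -1.44 for miR-20b to -0.74 for miR-19b.

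In the miR-17 family, which targets p21 and BIM, miR-20a is made from the fourth hairpin of the chromosome 14 cluster. Probes of different sequence bind with different strength, so a miRNA's level is compared only with its own at the other stage. The brighter probe of miR-20a gave an unscaled intensity of 1909.6 ± 42.5 (SD over 20 spots) at E10.5 and 2039 ± 52.8 (SD over 19 spots) at E11.5. Its other probe gave 1040.2 ± 14.7 and 1084 ± 21.2. This and every SD given below for the intensity of a member is over the 13 to 20 spots of a probe left on an array. The unscaled spots of both probes overlapped between the stages, with slightly higher means at E11.5. The scaled log2 difference was -1.24 ± 0.0071 (SE over spots), a value 2.36-fold lower at E11.5.

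miR-20b, encoded only on the X chromosome, was dimmer at E11.5 even before scaling. Its probes gave 963 ± 24.1 and 423 ± 17.6 at E10.5, and 926 ± 27.2 and 371 ± 16.8 at E11.5. The means of both probes were lower at E11.5 while their spots overlapped. The scaled log2 difference was -1.44 ± 0.012, or 2.71-fold lower, with -1.37 and -1.50 for the separate probes. This gap of 0.13 between probes was the largest among the 7 members with 2 measured probes, whose median gap was 0.045.

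miR-17 rested on 1 dim probe. That probe gave 39.5 ± 6.47 at E10.5 and 36.3 ± 9.84 at E11.5 (SD over 20 spots each), close to the dimmest detected probe of each array (30.9 and 29.5). Of its spots, 90.0% and 85.0% were well above background. The other miR-17 probe gave 1.86 ± 5.75 and 4.62 ± 5.03, below the mean of the negative control spots (7.87 ± 6.16 and 5.88 ± 5.60, SD over 1000 spots each). The scaled log2 difference of the dim probe was -1.44 ± 0.10. With no filter and a floor it was -0.35. That floor, the higher of the dimmest detected scaled values of the arrays, replaced the probe's scaled 0.075 at E11.5. It thus limited how low the value could go. With the Feature Extraction gene detection flag miR-17 was at -0.72. This averages the dim probe with the undetected one, whose scaled values were 0.0096 at both stages. The 2-fold size of miR-17 was not kept under either choice, but neither measured it anew. As the miR-17 probes match miR-106a without a mismatch, the signal of these probes cannot be assigned to miR-17 alone. Whether miR-20a and miR-20b, at 1 mismatch, also added to it was not tested.

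The passenger strand of the same hairpin, miR-17*, was measured by 2 probes. They gave 165 ± 9.29 and 63.6 ± 8.06 at E10.5, and 232 ± 18.1 and 91.98 ± 9.69 at E11.5. Before scaling, every spot at E11.5 was brighter than every spot at E10.5 on both probes. Its scaled log2 difference was -0.80 ± 0.031, or 1.75-fold lower. For the strands of the Mir17 hairpin, the difference of miR-17 minus that of miR-17* was -0.63 ± 0.11, beyond 2 times its spot SE (0.21). With the floor and with the gene detection flag miR-17 lay above miR-17*. There the floor replaced the miR-17 value at E11.5, and the flag averaged in its undetected probe.

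miR-18a, the chromosome 14 member of the miR-18 family, gave 515 ± 18.5 and 244 ± 8.26 at E10.5, and 609.8 ± 18.1 and 279 ± 14.8 at E11.5. The stages did not overlap on the brighter probe and overlapped on the other, with higher unscaled means at E11.5. The scaled log2 difference was -1.10 ± 0.013, or 2.14-fold lower. Its X-linked relative miR-18b, which shares the seed, had 4 probes, and none of them passed detection on either array.

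The miR-19 family, which carries much of the cluster's known oncogenic activity, was the least lowered of the members' seed families. miR-19a gave 177 ± 8.09 and 99.4 ± 10.5002 at E10.5, and 240.3 ± 10.9 and 137 ± 9.13 at E11.5. miR-19b gave 1364 ± 49.3 and 314 ± 6.46 at E10.5, and 1996 ± 69.97 and 475 ± 16.97 at E11.5. On all 4 probes every unscaled spot at E11.5 was brighter than every spot at E10.5. The scaled log2 differences were -0.86 ± 0.023 for miR-19a and -0.74 ± 0.011 for miR-19b, or 1.82-fold and 1.67-fold lower.

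miR-92a, the last hairpin of the chromosome 14 cluster, gave 3029 ± 65.0 and 551 ± 14.6 at E10.5, and 3284 ± 113 and 589 ± 30.04 at E11.5. The unscaled spots overlapped between the stages, with higher means at E11.5. The scaled log2 difference was -1.21 ± 0.012, or 2.31-fold lower, and its 2 probes gave -1.20 and -1.22.

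**Figure D2:**
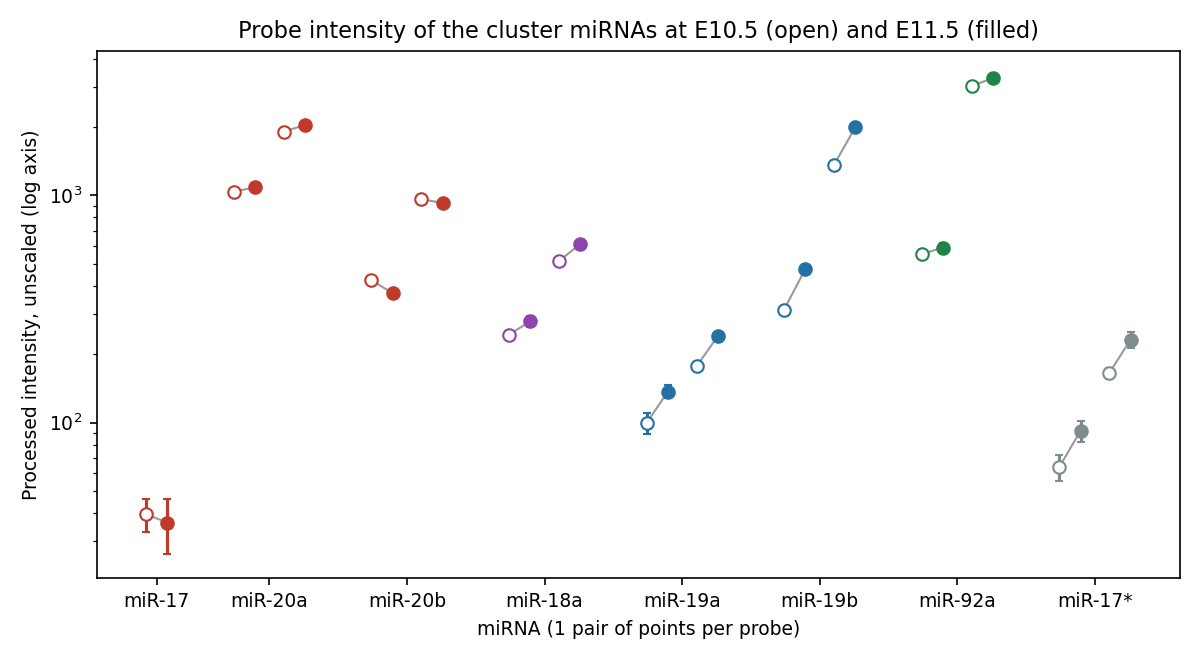
Unscaled processed intensity (logarithmic axis) of the 15 cluster probes detected on both arrays, with 1 pair of points per probe joined by a line, open for E10.5 and filled for E11.5, and bars for the SD over spots (often smaller than the point). Before scaling 12 probes are brighter at E11.5, most steeply those of miR-19a, miR-19b and miR-17*, while the miR-17 probe and both miR-20b probes are dimmer.

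After scaling, the spots at E11.5 lay wholly below those at E10.5 on each of the 15 probes. Before scaling they lay wholly above on 7 probes, overlapped on 8 and lay wholly below on 0. Spots of 1 array share 1 RNA pool and 1 labelling, so this shows that spot noise is small and says nothing of noise between arrays.

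In the order of the scaled differences, miR-20b and miR-17 stood lowest and differed by less than 2 times their spot SE, as did miR-17 and miR-20a. The gap of 0.029 between miR-20a and miR-92a only just exceeded that limit (0.027), and the next steps, 0.11 to miR-18a and 0.23 to miR-19a, exceeded it. These spot errors leave out the choice of processing, and part of this order turned with it: miR-18a lay below miR-92a and miR-20a with quantile normalization (-1.08, -1.01 and -0.87) and in the authors' deposited value table (-1.03, -0.80 and -0.82). In that deposited table the step from miR-18a to miR-19a was 0.041. miR-19a, miR-17* and miR-19b followed, with neighbours again within the limit. The differences of miR-20a and miR-20b, whose probes are 1 base apart, were 0.20 ± 0.014 from each other, and those of miR-19a and miR-19b 0.12 ± 0.025. Both gaps were wider with quantile normalization (0.39 and 0.20) and in the authors' deposited value table (0.52 and 0.48), and the miR-19 gap also with normexp (0.21). Over the 17 processing choices, the reported one included, miR-20b lay below miR-20a and miR-19a below miR-19b in all 17. Choices that change only the number an array is divided by cannot alter these gaps. Those that change only detection left them at 0.20 and 0.12, so the counts are not of 17 separate checks. miR-20a and miR-20b lay below both miR-19 miRNAs in 16, the exception being the authors' deposited value table, where miR-20a was at -0.82 and miR-19a at -0.99. All measured members with the miR-17 seed lay below both in 14. The low place of miR-17 also turned with choices that changed what entered its value. It was the highest member in 2 of the 17, at -0.72 under the gene detection flag and -0.35 under the floor. The flag averaged in its undetected probe, and the floor replaced its scaled value at E11.5. Neither is a separate measurement of its place.

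By family, the median scaled log2 difference was -1.44 over the 3 measured members with the miR-17 seed and -0.80 over the 2 with the miR-19 seed, with miR-18a (-1.10) and miR-92a (-1.21) between them. That median of -1.44 is the value of miR-17, which rests on 1 dim probe. The other 2 members with this seed were miR-20b at -1.44 and miR-20a at -1.24. By locus, the 4 members made only from chromosome 14 had a median of -0.98 and ran from -1.24 to -0.80, the 3 whose probes match both clusters ran from -1.44 to -0.74, and miR-20b, made only from the X chromosome, was at -1.44. Neither grouping was tested. These are descriptions of 8 values from 1 pair of arrays.

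**Figure D3:**
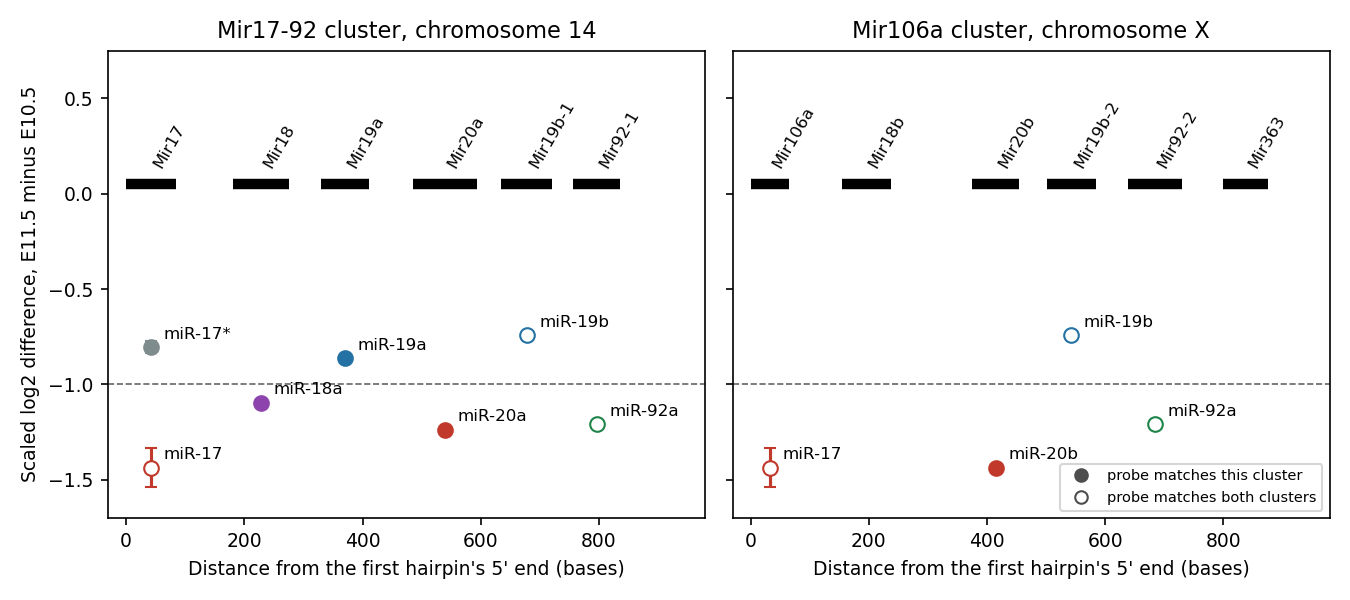
Scaled log2 difference, E11.5 minus E10.5 (vertical axis), of each cluster miRNA at the position of its hairpin, in bases from the 5′ end of the first hairpin, for the chromosome 14 cluster (left) and the X-linked cluster (right). Black bars are hairpins, open circles are miRNAs whose probes match both clusters and so appear in both panels, and bars are spot SEs. Values do not follow the order of the hairpins, and neighbours such as miR-19a (-0.86) and miR-20a (-1.24) lie apart.

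Of the 13 other mature miRNAs of the 2 clusters on the array, with 38 probes in all, 0 were detected at E10.5 and 1, miR-20a*, at E11.5. Over all miRNAs on the array, 13.3% and 18.4% were detected. The gene detection flag differs for the 13, calling miR-20a* and miR-18a* on both arrays. miR-20a* had 2 detected probes at E11.5 (SD over 10 spots), at 41.9 ± 6.62 and 30.9 ± 9.22 against 28.2 ± 4.67 and 19.1 ± 4.68 at E10.5. Once scaled, it had no bound above 1-fold. Without scaling the bound, averaged over the 2 probes, was 1.16-fold higher at E11.5. Alone, the dimmer probe gave none, as its 30.86 lay below the dimmest detected probe at E10.5 (30.91). From the X-linked cluster, miR-363-3p (which has the miR-92a seed) gave 25.6 ± 5.08 at E10.5 and 10.9 ± 4.85 at E11.5 on its brighter probe, and miR-18b* gave 22.0 ± 5.49 and 6.89 ± 3.50. All 4 probes of this pair had lower means at E11.5 before scaling, near the level of the negative controls there. Neither miRNA passed detection on either array, so no fold is given, although the gene detection flag called both at E10.5 and not at E11.5. The others (miR-106a*, miR-18b, miR-20b*, miR-19b-2*, miR-92a-2*, miR-363-5p) and the chromosome 14 passenger strands miR-18a*, miR-19a*, miR-19b-1* and miR-92a-1* had intensities of at most 26.5 on any probe, not well above background.

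The third mammalian cluster of this group, Mir106b-25, lies in an intron of the replication gene Mcm7. Its 3 guide strands were lower too, by less than most members: miR-93 was at -0.85 ± 0.026, miR-25 at -0.52 ± 0.018 and miR-106b at -0.43 ± 0.017, and 0 of the 3 were 2-fold lower. Before scaling all 3 were brighter at E11.5, by 0.46, 0.80 and 0.89. miR-106b and miR-93 have the miR-17 seed, and the difference of miR-20a minus theirs was -0.81 ± 0.018 and -0.38 ± 0.027. miR-25 has the miR-92a seed, and the difference of miR-92a minus its own was -0.69 ± 0.021. With these relatives counted, the median was -1.24 over 5 measured miRNAs with the miR-17 seed and -0.86 over 2 with the miR-92a seed. miR-106b and miR-25 lay above both miR-19 miRNAs, and miR-93 lay between them. Of the passenger strands of this cluster only miR-106b* was detected, at E11.5 (35.7 ± 4.23, SD over 9 spots, on 1 of 4 probes), with no bound above 1-fold once scaled. The seed relatives from other loci, miR-32, miR-92b and miR-367, did not pass detection on either array.

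The miRNAs outside the family whose scaled difference was nearest to the members' median of -1.15, compared over the 2 arrays alone, were miR-96 (-1.14 ± 0.032), miR-1224 (-1.19 ± 0.035), miR-429 (-1.28 ± 0.028), miR-677* (-0.996 ± 0.082) and miR-3072* (-1.32 ± 0.039). miR-429 belongs to the epithelial miR-200 family and miR-96 to a cluster of sensory epithelia. Among the 19 miRNAs that were at least 2-fold lower, 5 were members, which is 26.3% of those 19 and 62.5% of the 8 measured members. Of all 137 measured miRNAs 13.9% were at least 2-fold lower, and of the 129 that are not members, 14 were. These counts are for the reported scaling and change with it, as given below.

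Markers of the cell types of the arch were read beside these values. Of the mesenchymal miRNAs, miR-199a-3p, miR-199a-5p and miR-214 were detected at both stages and differed by 0.071 to 0.28, with a summed unscaled intensity of 10011 at E10.5 and 26766 at E11.5. Of 7 epithelial miRNAs, 4 passed detection at E10.5 and 5 at E11.5, the 4 measured ones ran from -1.59 to -0.85, and the list summed to 1049 and 1146. miR-200a and miR-141 did not pass detection on either array. Endothelial miR-126-3p was at -0.81 ± 0.012, with list sums of 551 and 773, and erythroid miR-451 at -0.60 ± 0.033, with 141 and 232. miR-126-5p and miR-144 were not detected at either stage. Leukocyte and neural lists had 0 miRNAs detected at E10.5 and 1 each at E11.5 (list sums of 67.6 and 77.3, and of 38.9 and 153). Muscle miRNAs went from 0 of 4 detected to 4 of 4 (33.3 to 912). The cluster members summed to 10900 and 12395. All these sums are unscaled, and the E11.5 array was brighter for most miRNAs. Each sum adds every probe of a list, detected or not, so it is compared only with its own at the other stage. Scaled, the sums went from 51.7 to 55.6 for mesenchyme, 5.41 to 2.38 for epithelium and 2.84 to 1.61 for endothelium. They went from 0.73 to 0.48 for the erythroid, 0.35 to 0.16 for the leukocyte and 0.20 to 0.32 for the neural list. Muscle went from 0.17 to 1.89 and the members from 56.3 to 25.7. The part of each cell type in the members' differences was not tested.

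The authors' deposited table, normalized in a way not given in the sources used here, listed all 8 members at lower intensity at E11.5. In the authors' deposited table miR-20b went from 649 to 257, miR-20a from 1121 to 637 and miR-17 from 18.8 to 7.03. The same deposited table gave 347 and 170.2 for miR-18a, 150.4 and 75.8 for miR-19a, 725 and 512 for miR-19b, 1513 and 871 for miR-92a, and 122 and 64.1 for miR-17*. It thus also placed miR-20b and miR-17 lowest, at log2 differences of -1.33 and -1.42, and miR-19b highest, at -0.50, in the authors' deposited values.

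The choice of scaling sets the direction of the members' differences. With no scaling 2 of 8 were lower, with the 75th percentile of all miRNA probes 3 of 8 (10.9% of all measured miRNAs), and with the 20 control probes that passed detection at both stages 6 of 8 (22.6%). In each of these 0 of 8 were 2-fold lower, as were 0% of all measured miRNAs. With the other 14 choices, the reported one included, every measured member was lower, while 48.9% to 72.3% of all measured miRNAs were. Most of these 14 kept a divisor taken from detected probes or miRNAs. The reported divisor takes 1.31 off each log2 difference, and the highest unscaled difference of a member was 0.57. The 14 are thus not separate checks of the direction. The 2-fold size of single members also turned on other choices. With normexp background correction miR-17 and miR-20b kept it (10.2% of all measured miRNAs did), while miR-20a was at -0.99, miR-92a at -0.97 and miR-18a at -0.88. With quantile normalization miR-20a lost it (-0.87; 13.1% of all had it), and in the authors' deposited value table miR-17, miR-18a and miR-20b had it (16.6% of all), with miR-92a at -0.80. Without scaling 88 miRNAs were at least 2-fold higher and 0 lower, where the reported scaling gave 5 higher and 19 lower, and the median over all miRNAs moved from -0.07 to 1.24. miR-20b was lower under all 17 choices and miR-17 under the 16 that measured it, at -0.12 each without scaling. The members' median lay below that of all measured miRNAs under each choice, from -0.64 relative to it with normexp to -1.12 with the median over spots. Choices that change only the number an array is divided by leave this distance at -1.08 by construction, so they are not separate checks of it.

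**Figure D4:**
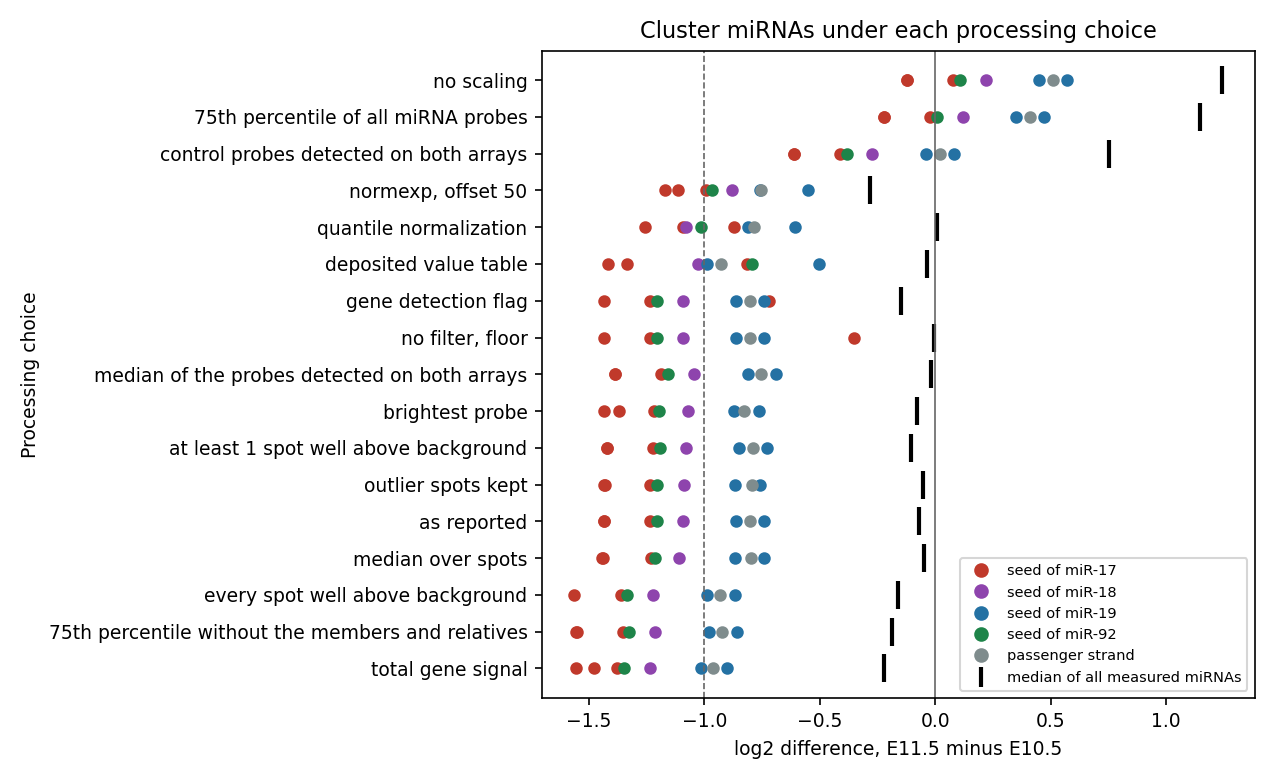
log2 difference, E11.5 minus E10.5 (horizontal axis), of each cluster miRNA (circles, coloured by seed) under the reported processing and the 16 alternatives (vertical axis), with the median of all measured miRNAs as a black bar. The dashed line marks a 2-fold lower value. Circles move across 0 with the scaling but lie left of the black bar under each of the 17. Choices that change only the number an array is divided by move circles and bar together by construction.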

How the data were processed

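Cy3-labelled total RNA was hybridised to 1-colour Agilent miRNA arrays (design 031184, mm9), 1 per stage, per the labels' protocols and the file headers. The deposited scanner files hold spot intensity, background-subtracted and spatially detrended by Feature Extraction 10.7.1.1 per the file headers (9.5.1.1 per the submitters' processing notes), with no normalization between arrays. The authors' deposited value table holds linear intensity, its normalization not given in the sources used here. Its 188 highest values are the same in both columns, rank by rank. Quantile normalization also gives equal values by rank, so that setting and this table are not separate checks of each other. The table's column medians are 0.1 and 0.1, and the table served as an alternative.

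Outlier spots (2058 of 43200 at E10.5, 2118 at E11.5) were left out, no miRNA spot was saturated, spots were averaged per probe, and a miRNA's value averages those of its probes that passed detection at both stages. The SE combines spot SEs. A bound is taken against the higher of the other array's dimmest detected probe and the probe's own signal. It is averaged in log2 over a miRNA's detected probes. With 1 array per stage no test was possible. Steps were tested on simulated data. Members and lists were chosen with earlier results of these data known. Named miRNAs are all members, the related list and the 5 others nearest the members' median. miRNA sequences are RefSeq's, and 8 of 9 members matched by probe sequence. Software was Python 3.11.15, numpy 2.4.6, pandas 2.3.3, matplotlib 3.10.9, limma 3.58.1 and R 4.3.3. The 16 alternatives covered scaling, background correction, detection, probe summary, outlier spots and the value table.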

Additional observations from a re-analysis of the deposited data

How the results depend on the processing

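No paired analysis was possible because each stage has 1 array. The members' median of -1.15 was 0.16 unscaled (2 members lower) and 0.064 when every miRNA probe entered the percentile (3 lower), and both left 0 members at least 2-fold lower. Unscaled, miR-18a was at 0.22, miR-20a at 0.077, miR-92a at 0.11, miR-96 at 0.18, miR-1224 at 0.12 and miR-429 at 0.031. With every probe in the percentile, miR-18a was at 0.12, miR-92a at 0.0076, miR-96 at 0.077 and miR-1224 at 0.025. With control probes, whose log2 ratios ran from 0.26 to 0.90, the median was -0.33, with 0 members 2-fold lower. The median was -0.92 with normexp (2 members 2-fold lower), -0.96 with the value table (3), -0.94 with quantile normalization, -0.98 with the gene detection flag and with no filter and a floor, -1.27 with the percentile taken without the members and relatives, and -1.29 with the total gene signal. With every spot required to be well above background miR-17 was not measured. Over all miRNAs, the 19 at least 2-fold lower were 32 with the gene detection flag, and the 5 at least 2-fold higher were 9 with it and with the value table. The causes were not tested, beyond what scaling changes by construction. Signal close to background limits the miR-17 value, and 1 array per stage limits every value.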
